A study of Homo sapiens with 2 samples.

Results

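Ferritin and iron uptake are represented here by 5 genes, chosen by symbol: FTH1 and FTL, the heavy and light subunits of ferritin; TFRC, the transferrin receptor; and ACO1 and IREB2, the iron regulatory proteins. They were 5 of the 16645 annotated genes with a read, and 133 of the 237608 transcript models in the table belonged to them. FTH1 had 41 models, FTL 35, TFRC 30, ACO1 15 and IREB2 12. The RNA came from GM12878, an established human line of B lymphoblasts that carries Epstein-Barr virus, and native strands, which enter the pore 3′ end first, were sequenced directly on an Oxford Nanopore FLO-MIN106D flow cell with the SQK-RNA002 kit. It was extracted with the RNeasy Plus kit and is called depleted in the labels, which do not name what was removed, and a reverse transcription step opened secondary structure. The 2 libraries are replicates 1 and 2 of 1 untreated group of 1 cell line. The labels do not say whether they came from separate cultures, so their spread may be technical, and no comparison of conditions is possible.

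Cells take up iron when transferrin binds its receptor at the surface and is carried into endosomes, and they store what they do not use inside ferritin, a hollow shell of heavy and light subunits. The heavy subunit oxidises iron at entry, and the light subunit favours its deposition as mineral. When iron is scarce, the iron regulatory proteins bind a short stem-loop, the iron responsive element. Near the 5′ end of ferritin mRNAs this binding blocks translation, while in the 3′ untranslated region of TFRC mRNA it protects the transcript from decay. ACO1 encodes iron regulatory protein 1, which is a cytosolic aconitase while it holds an iron-sulfur cluster, and IREB2 encodes iron regulatory protein 2, which is degraded when iron is plentiful.

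The element is shown first because it lies in different parts of the ferritin and TFRC transcripts and therefore in parts that incomplete reads can lack. The annotated transcripts of the 5 genes with most known reads (GENCODE 29, GRCh38) were searched for a 17-base pattern: a C, any 5 bases, CAGTG, and any 6 bases, where the 5 bases on each side of the 6-base loop that starts with CAGTG had to pair, G with T allowed. One match was found in FTH1-201 and 1 in FTL-201, both in exon 1 and in the 5′ untranslated region, and 4 in TFRC-201, all in exon 19 and in the 3′ untranslated region. Each is printed as 30 bases of DNA letters, 5′ to 3′ on the transcript strand, with the bulged C and the 6 loop bases in capitals.
FTH1 (chr11:61967573-61967602, minus strand): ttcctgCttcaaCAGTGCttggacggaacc
FTL (chr19:48965335-48965364, plus strand): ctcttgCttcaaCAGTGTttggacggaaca
TFRC element 1 (chr3:196050978-196051007, minus strand): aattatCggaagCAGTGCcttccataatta
TFRC element 2 (chr3:196050574-196050603, minus strand): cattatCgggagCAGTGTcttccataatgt
TFRC element 3 (chr3:196050509-196050538, minus strand): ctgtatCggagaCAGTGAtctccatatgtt
TFRC element 4 (chr3:196050462-196050491, minus strand): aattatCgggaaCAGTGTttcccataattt

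Of 83119 annotated protein-coding transcripts of at least 100 bases, 47 (0.0565%, from 23 genes) held the pattern in their first 100 bases, and 19 (0.0229%) held it on the other strand. Of 33828 protein-coding transcripts of at least 2000 bases, 210 (0.621%) held it in their last 2000 bases and 231 (0.683%) on the other strand. Only 3 transcripts of 1 gene, TFRC, held at least 4 matches there. The TFRC matches spread over 533 bases, and the first began 1718 bases before the end of TFRC-201. No match was found in ACO1-201 or IREB2-201, which says only that these letters were not there. The pattern is strict, so an element that departs from it is missed, and the 4 TFRC matches need not be all elements of that transcript.

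**Figure D1:**
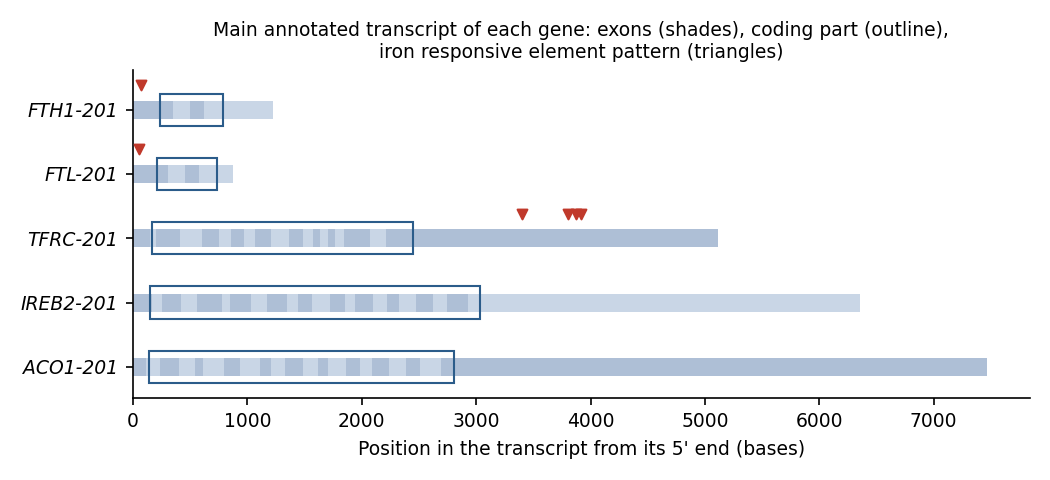
Main annotated transcript of each gene drawn to scale in bases from its 5′ end, with exons in alternating shades, the coding part outlined and matches to the iron responsive element pattern as triangles. The single matches of FTH1 and FTL sit in the first exon, and the 4 matches of TFRC sit in a last exon of 2901 bases.

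Replicate 1 held 1360368 reads and replicate 2 held 1510998, so that 1 read was worth 0.735 and 0.662 CPM (reads of a gene per 1000000 reads of the library). A direct RNA read is 1 strand whatever its length, so CPM was compared between genes without division by length. All 8 B cell markers checked were read in both libraries, from 39.7 to 8088 CPM. Of 8 markers of other lineages, 5 had 0 reads in both libraries (ALB, EPCAM, GATA1, HBG1 and LYZ), and the highest was CD3E with 5 and 16 reads. The defining markers thus matched the labelled cell type.

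The 5 genes spanned more than 2 orders of magnitude, with the ferritin subunits at the top. FTH1 (ENSG00000167996.15, chromosome 11, 61959718 to 61967660, minus strand) had 2960 reads in replicate 1 and 3175 in replicate 2, or 2176 and 2101 CPM, averaging 2139 CPM ± 52.8 (SD, n = 2). FTL (ENSG00000087086.14, chromosome 19, 48965301 to 48966878, plus strand) had 2919 and 2156 reads, or 2146 and 1427 CPM, averaging 1786 CPM ± 508 (SD, n = 2). These means ranked the subunits 94th and 105th among the 16645 genes. The ranges of FTH1 and FTL overlapped, since FTL in replicate 1 lay above FTH1 in replicate 2, so their order did not hold against the spread.

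The receptor followed at a distance. TFRC (ENSG00000072274.12, chromosome 3, 196027183 to 196082189, minus strand) had 377 and 449 reads, or 277 and 297 CPM, averaging 287 CPM ± 14.2 (SD, n = 2), and FTL exceeded it 6.22-fold by the ratio of mean CPM. That fold depended on the models counted: it was 117 without genomic models, reads that overlap a gene without matching its splicing, and 308 with models of annotated transcripts only. The regulatory proteins were read rarely. IREB2 (ENSG00000136381.12, chromosome 15, 78437431 to 78501456, plus strand) had 22 and 28 reads, or 16.2 and 18.5 CPM, averaging 17.4 CPM ± 1.67 (SD, n = 2). ACO1 (ENSG00000122729.18, chromosome 9, 32384603 to 32454769, plus strand) had 14 and 9 reads, or 10.3 and 5.96 CPM, averaging 8.12 CPM ± 3.07 (SD, n = 2). From FTL down through TFRC and IREB2 to ACO1, the CPM ranges of neighbours did not overlap. The last step, 2.14-fold between mean levels, however rests on 50 and 23 reads in all. The order of these last genes turned with the models counted: IREB2 had 3.93 and ACO1 8.12 CPM without genomic models, and 0.735 and 1.47 CPM with annotated transcripts only.

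**Figure D2:**
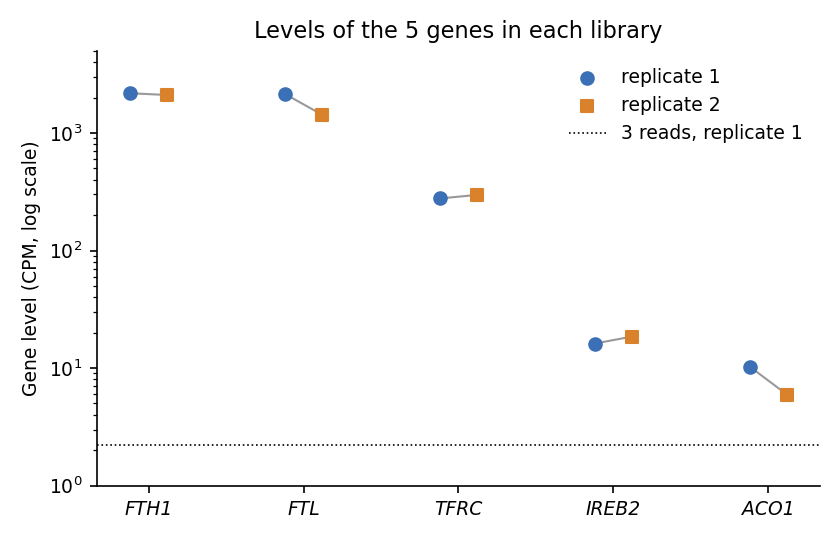
Gene level in CPM on a log axis for the 5 genes, with a circle for replicate 1 and a square for replicate 2; the dotted line is the level of 3 reads in replicate 1. FTH1 and FTL sit between 1427 and 2176 CPM, with FTL lower in replicate 2, and ACO1 and IREB2 sit between 5.96 and 18.5 CPM.

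Between the libraries, the light subunit differed and the heavy subunit did not pass the test. FTL was lower in replicate 2, 0.665-fold in CPM or -0.59 on the log2 scale (adjusted p = 1.71e-44, two-sided exact binomial test with Benjamini-Hochberg adjustment over all genes). FTH1 had a log2 ratio of -0.05 (adjusted p = 0.571), TFRC 0.10 (adjusted p = 0.743), IREB2 0.19 (adjusted p = 0.943) and ACO1 -0.76 (adjusted p = 0.619), all by the same exact test. One of the 5 genes was thus called, where 5.05% of the 10634 genes tested were called in either direction, 2.72% higher and 2.33% lower in replicate 2. This test compares the reads of 2 libraries and covers counting error only. Of the 356 genes with at least 1000 reads, 13 had a lower log2 ratio than FTL, and the 5th and 95th percentiles of that ratio were -0.49 and 0.39. Of those 13 genes, 9 are mitochondrially encoded, and such genes took 1.82% of reads in replicate 1 and 0.930% in replicate 2. With them left out of totals and tests, an alternative added after the values were seen, FTL had a log2 ratio of -0.60 (adjusted p = 4.58e-46, exact binomial test).

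The number of FTH1 reads per FTL read was 1.01 in replicate 1 and 1.47 in replicate 2, a 1.45-fold difference (p = 1.25e-22, two-sided Fisher's exact test of the reads of the 2 libraries). This single test was added after the values were seen. The direction of TFRC and IREB2 depended on which models were counted: without genomic models, which are defined below, their log2 ratios were -1.26 and -1.36, neither past the threshold. FTL stayed lower and past the threshold with known models only, relative to all known reads (log2 ratio of -0.43), where FTH1 had 0.020. The median over all genes was then -0.26, so the FTL value is partly shared by other genes, and FTH1 lay above the median.

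**Figure D3:**
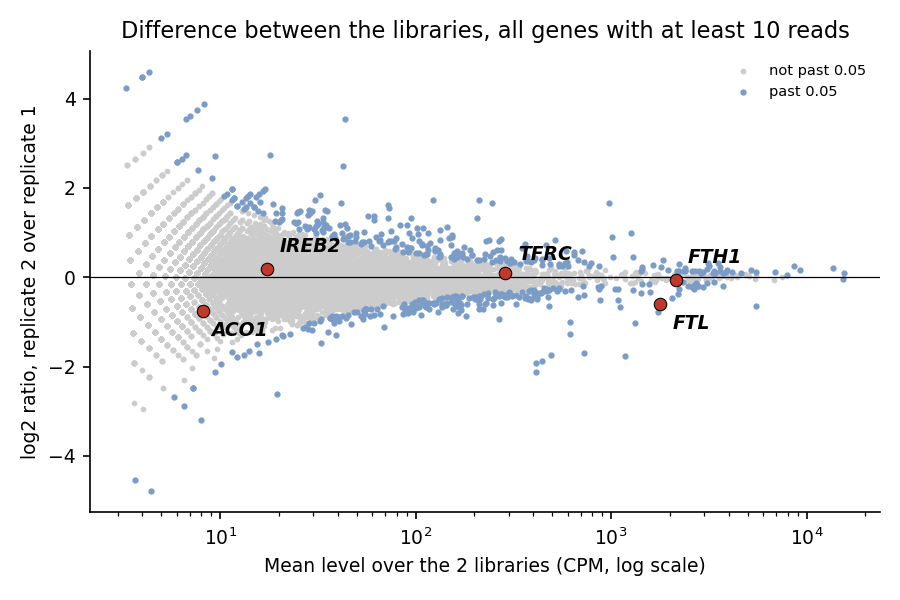
Log2 ratio of CPM, replicate 2 over replicate 1, against the mean CPM on a log axis for every gene with at least 10 reads; blue points passed an adjusted p of 0.05, and the 5 genes are red. FTL lies at -0.59 while FTH1, at a like level, lies at -0.05.

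Reads were also assigned to processed pseudogenes of FTH1 and FTL, picked by symbol, which could split the counts. The likeness of these reads to the parent genes was not measured. Of these, 7 FTH1 pseudogenes held 13 and 25 reads, 0.437% and 0.781% of the reads of parent and pseudogenes together, and 2 FTL pseudogenes held 12 and 21 reads, 0.409% and 0.965%. FTLP3 (12 and 20 reads), FTH1P7 (7 and 10 reads) and FTH1P10 (2 and 6 reads) had most. Reads assigned to the wrong copy cannot be counted from this table.

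The reads of each gene were next divided by the class of their transcript model. Known models match an annotated transcript, and incomplete splice match (ISM) models have a run of its junctions: suffix models keep the 3′ end and prefix models the 5′ end. Some models of 1 exon, which have no junction, were also classed ISM. In FTL 2 such models held 60 and 76 reads. Models of the class NIC join known splice sites in combinations absent from the annotation, those of the class NNC use at least 1 unannotated site, and genomic models overlap a gene without matching its splicing. The ferritin genes were read mostly as known models, TFRC and IREB2 mostly as genomic models, and ACO1 mostly as ISM models.

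In replicate 1, 92.0% of FTH1 reads fell on known models, against 79.2% in replicate 2 (mean 85.6% ± 9.02, SD, n = 2). For FTL the shares were 89.3% and 81.9% (mean 85.6% ± 5.21, SD, n = 2). In both subunits the share was lower in replicate 2 and passed the test, by -12.7 percentage points in FTH1 (adjusted p = 1.80e-44, Fisher's exact test of the reads) and by -7.37 in FTL (adjusted p = 6.45e-12, Fisher's exact test of the reads). Of all 8898 genes tested, 18.3% were called for this share, 18.1% lower and 0.202% higher in replicate 2, and the median difference was -7.13 percentage points. Among the 356 genes with at least 1000 reads the median was -8.75, and FTH1 and FTL ranked 128th and 199th from the lowest. The differences in the ferritin genes thus lay within the spread of the other abundant genes.

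In TFRC, known models held 10 of 377 reads (2.65%) and 4 of 449 (0.891%), and genomic models held 92.0% and 97.1%. In IREB2, known models held 2 of 22 and 0 of 28 reads, and genomic models held 63.6% and 89.3%. In ACO1, known models held 4 of 14 and 0 of 9 reads, ISM models held 9 and 8 reads, and genomic models held 0. The known share did not pass the test in TFRC (adjusted p = 0.208), IREB2 (adjusted p = 0.463) or ACO1 (adjusted p = 0.354) by Fisher's exact test. With the upper limit set at 3 reads, a count of 0 in replicate 2 allows a known share of up to 10.7% in IREB2 and 33.3% in ACO1. The test could therefore miss a difference at this depth.

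**Figure D4:**
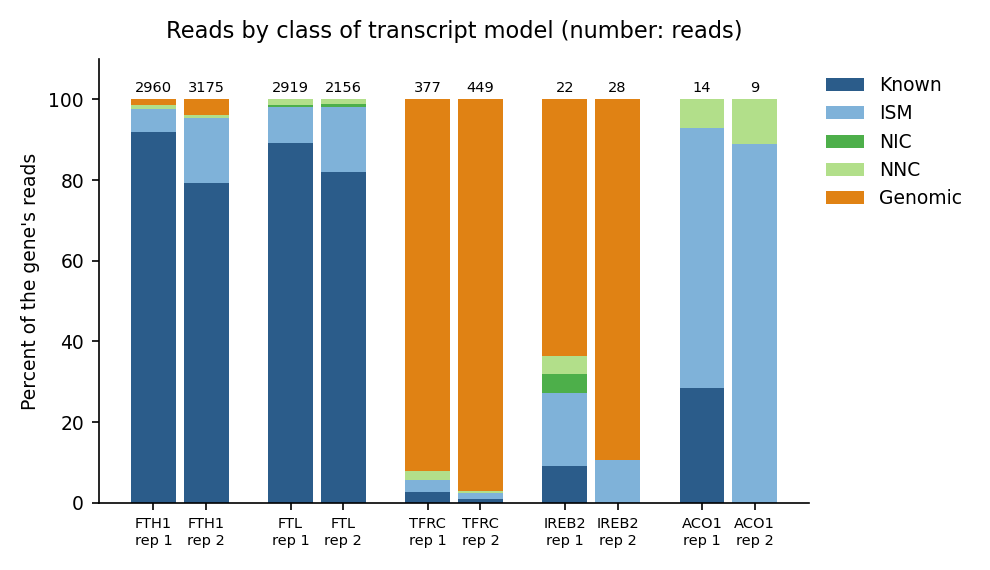
Percent of each gene's reads in known, ISM, NIC, NNC and genomic models, one bar per gene and replicate, with the number of reads above each bar. The ferritin bars are mostly known models (79.2% to 92.0%), the TFRC bars mostly genomic models (92.0% and 97.1%).

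In FTH1, the full-length model was lower and several incomplete models were higher in replicate 2, while the gene total did not pass the test. The known model FTH1-201 (4 exons, 1229 bases) was lower in replicate 2, with 2702 and then 2494 reads (log2 ratio of CPM -0.27, adjusted p = 1.61e-09, exact binomial test over all models). The suffix model ENCODEHT000380673 (3 exons, 880 bases) was higher there, with 109 and then 336 reads (log2 ratio 1.47, adjusted p = 5.08e-21, exact binomial test). Its length equals the sum of exons 2, 3 and 4 of FTH1-201, so it lacks exon 1 and with it the element printed above. The suffix model ENCODEHT000380694 (2 exons, 726 bases) had 54 and 158 reads, a log2 ratio of 1.39, and the single-interval genomic model ENCODEHT000380675 (301 bases) had 35 and 114 reads, a log2 ratio of 1.54. Each of these 3 incomplete or genomic models was higher in replicate 2, and FTH1-201 was lower.

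A prefix model of 2 exons and 422 bases, ENCODEHT000389583, had 0 reads in replicate 1 and 12 in replicate 2 (adjusted p = 0.00679, exact binomial test), and its call was lost with no minimum on reads (adjusted p = 0.0636). In total 4 of the 9 FTH1 models tested were higher in replicate 2 and 1 was lower, where 8.23% and 7.34% of all 25381 models tested were. Calls were more frequent among models with many reads: with a minimum of 50 reads, 2924 of 6294 models were called in either direction. The FTH1 calls are therefore not set apart from those of other well-read models. The other known models of FTH1 were minor. FTH1-211 (3 exons, 788 bases) had 6 and 11 reads and FTH1-208 (4 exons, 912 bases) had 7 and 8 reads. FTH1-211 was the only known FTH1 model with a read that lacked the element in its first 200 bases. The NNC model with most reads, ENCODEHT000381105 (4 exons, 905 bases), had 12 and 16 reads, and of 41 models 25 rested on a single read.

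In FTL only the known model passed the test. FTL-201 (4 exons, 878 bases), the only annotated transcript of the gene, had 2606 reads, 1916 CPM, in replicate 1 and 1766 reads, 1169 CPM, in replicate 2 (log2 ratio -0.71, adjusted p = 3.30e-56, exact binomial test). The ISM models of FTL together had 191 and 230 CPM, and none of the 8 other FTL models tested passed the threshold. The nearest was the suffix model ENCODEHT000532391 (2 exons, 1402 bases), whose 63 and 105 reads gave 0.58 as log2 ratio (adjusted p = 0.0621, exact binomial test), which passed when models needed 50 reads (adjusted p = 0.0261).

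**Figure D5:**
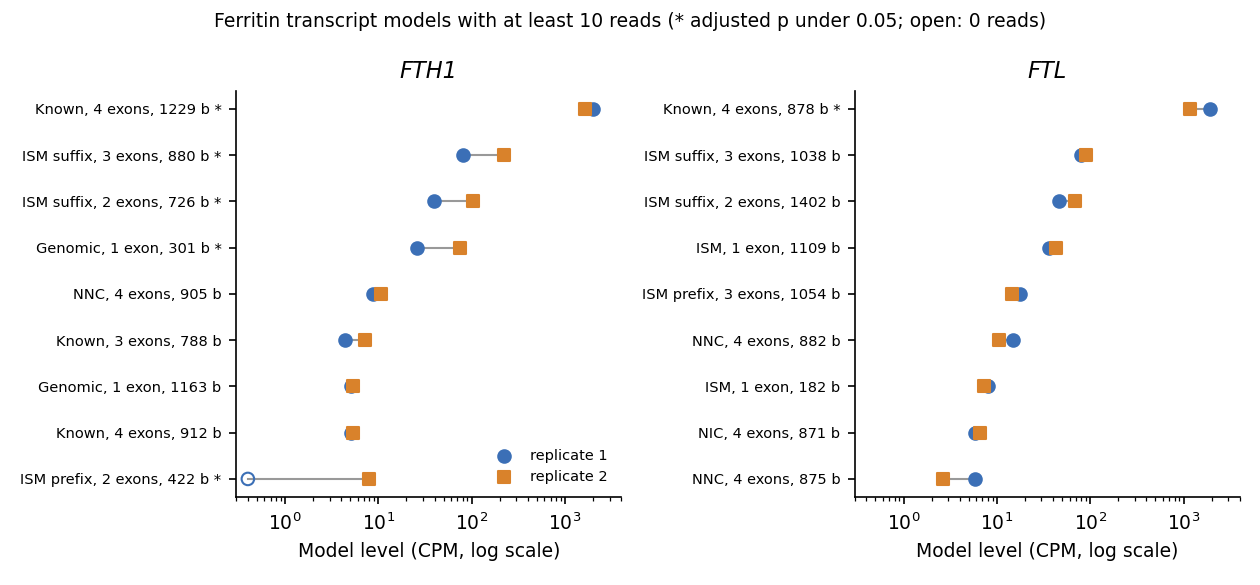
Level in CPM on a log axis of each FTH1 and FTL model with at least 10 reads, with a circle for replicate 1, a square for replicate 2, and an asterisk where the adjusted p was under 0.05. In FTH1 the 3 most abundant incomplete or genomic models lie to the right in replicate 2, and in FTL only the known model is marked.

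The ISM models of the subunits differed in structure. Model lengths were compared with every run of exons of FTH1-201 or FTL-201, with any set of the introns between them kept. In FTL, the lengths and exon numbers of 6 of the 10 ISM models each equalled exactly 1 structure with introns kept. The 3-exon suffix model ENCODEHT000532730 (1038 bases, 109 and 136 reads) equalled exons 1 to 4 with intron 1 kept, and ENCODEHT000532391 equalled the same exons with introns 1 and 2 kept. The prefix model ENCODEHT000523772 (3 exons, 1054 bases, 24 and 22 reads) equalled exons 1 to 4 with intron 3 kept, and the 1-exon model ENCODEHT000532728 (1109 bases, 49 and 65 reads) equalled exons 2 to 4 with introns 2 and 3 kept.

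Together these 6 models held 248 FTL reads in replicate 1 (8.50%, 95% Wilson interval 7.54 to 9.56%) and 334 in replicate 2 (15.5%, 14.0 to 17.1%), which were 95.4% and 96.0% of its ISM reads. In FTH1 none of the 10 ISM and genomic models had such a length. The introns of FTL are 160, 364 and 176 bases long, and those of FTH1 are 1796, 256 and 95 bases. The length belongs to the model: the table holds no read ends, so reads that kept intron 1 and reads that began in exon 2 have the same junctions and cannot be told apart. The comparison of lengths was added after the values were seen.

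The other FTL classes were small. The NNC model with most reads, ENCODEHT000524044 (4 exons, 882 bases), had 20 and 16 reads, the NIC model ENCODEHT000524981 (4 exons, 871 bases) had 8 and 10, and no genomic model was listed. The mean model length weighted by reads, with genomic models left out, fell from 1201 to 1155 bases between the replicates in FTH1. In FTL it was 898 and 920 bases. These are lengths of models, not of reads. The FTL ISM models with most reads are listed as longer than FTL-201 because their lengths include introns. The FTL values therefore do not show longer reads in replicate 2. The difference between the subunits was not tested.

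Known models that hold the iron responsive element in their first 200 bases received 91.8% of FTH1 reads in replicate 1 (95% Wilson interval 90.7 to 92.7%) and 78.9% in replicate 2 (77.4 to 80.3%). In FTL they received 89.3% (88.1 to 90.3%) and 81.9% (80.2 to 83.5%). Suffix models received 5.57% and 15.6% of FTH1 reads and 5.93% and 11.3% of FTL reads, though the 2 largest of FTL include exon 1 by their length. The intervals of the replicates did not overlap in either gene. A read assigned to a known model need not reach its first bases, so these shares do not measure how many reads covered the element.

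As a percent of known and ISM reads, ISM reads were 5.71% and 16.9% in FTH1 and 9.07% and 16.5% in FTL. Genes were ordered by transcript length and divided into 4 equal bins; FTH1 and FTL fell in the shortest bin (up to 1344 bases), whose 1568 genes together had 18.7% and 25.3%. For TFRC, in the longest bin, 11 of 21 (52.4%) and 7 of 11 (63.6%) such reads were ISM, where the 1567 genes of that bin together had 51.0% and 65.7%. The Wilson interval of TFRC in replicate 1 ran from 32.4 to 71.7%.

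The level of TFRC rested almost wholly on 1 model. ENCODEHT000546212, a genomic model of 1 exon and 193 bases, held 344 reads (91.2% of the gene) and 432 reads (96.2%) in replicates 1 and 2 (log2 ratio 0.18, adjusted p = 0.265, exact binomial test over all models). Without genomic models the mean level of TFRC was 15.3 CPM in place of 287 CPM. The full model TFRC-201 (19 exons, 5111 bases), which encodes the receptor and holds the 4 matches to the element pattern, had 10 and 4 reads. The 193 bases are the listed length of the model, and the lengths of its reads are not given. A single interval of 193 bases cannot hold all 4 matches, which spread over 533 bases, but where the interval lies is not in the table. Whether the reads of this model cover the matches therefore cannot be told.

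The last exon of TFRC-201 makes up 2901 of its 5111 bases (56.8%), so a read that begins at the 3′ end and stops within it crosses no junction. Over the 3537 genes with at least 100 reads and a spliced known model, the genomic share rose with the length of the last exon. It was 2.85% and 4.53% of reads in the 1211 genes with a last exon under 500 bases, and 22.9% and 29.3% in the 731 genes with 2000 bases or more. TFRC stood far above that group's median of 34.2%. It was among 45 genes of the group, and 60 of the 3537, with at least 90% of reads in genomic models, and 25 genes had a higher share. This grouping by last exon was chosen after the values were seen, and the part of exon length in the TFRC value was not tested.

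The ferritin genes have short last exons, 607 bases in FTH1-201 and 296 in FTL-201, and genomic shares of 1.45% and 3.87% in FTH1. IREB2-201 (22 exons, 6354 bases) ends in an exon of 3424 bases, and its genomic model ENCODEHT000393805 (1 exon, 2932 bases) held 12 of 22 and 21 of 28 reads of the gene. ACO1-201 (21 exons, 7466 bases) ends in an exon of 4772 bases, yet no genomic model of ACO1 was listed. The ACO1 model ENCODEHT000569571 (1 exon, 835 bases, 0 and 3 reads) was classed ISM, so models of 1 exon were not always classed genomic.

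All suffix models of the regulatory proteins were shorter than the last exons of the main transcript. Of the 10 suffix models of ACO1, 7 with 5 and 2 reads were 3937 bases shorter than the matching last exons of ACO1-201, which places their end at that of the annotated transcript ACO1-203. In IREB2, 3 of 7 suffix models, with 2 and 1 reads, were 3247 bases shorter than those of IREB2-201 and so shared the end of IREB2-203. In TFRC, 5 of 12 suffix models, with 4 and 3 reads, had exactly the length of the last exons of TFRC-201. These numbers are too small for a test between libraries. The comparison was added after the values were seen.

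Likeness to other genes was measured over the percentages of reads in the 5 model classes in both libraries (10 values), as the summed absolute difference, among 3877 genes with at least 100 reads. TFRC lay nearest to B4GALT1 (3.91 percentage points) and LARP4B (5.58), whose genomic shares were 92.2% and 97.6%, and 93.8% and 97.3%. FTL lay nearest to MEA1 (3.50), and FTH1 to NBDY (11.5) and TIMM13 (11.5). ACO1 and IREB2 had too few reads for this measure.

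Other genes of iron metabolism were taken from lists of 63 genes beside the 5. Of these, 53 had a read, 49 had at least 10 reads and 2 passed the test between the libraries, both higher in replicate 2, against 5.05% called among all genes. With known models only 4 of 39 were called, where 1042 of 5528 genes were called in all. Without genomic models 4 of 47 were called, where 723 of 8758 genes were called in all. In each of these settings 1 of the 4 was higher in replicate 2. Of all genes called, 31.1% and 41.5% were higher there, and 53.8% with all models, so the turn in direction was shared by other genes. With all models the median log2 ratio of the 49 genes was -0.11, and that of all genes was 0.01. Among storage and chaperone genes, PCBP1 and PCBP2, which deliver iron to ferritin, had 455 and 435 CPM and 343 and 435 CPM, and NCOA4, the receptor that carries ferritin to lysosomes, had 91.2 and 83.4 CPM. PCBP2 was higher in replicate 2 (log2 ratio 0.34, adjusted p = 0.00314, exact binomial test). FTMT, mitochondrial ferritin, had 0 reads, which allows up to 2.21 and 1.99 CPM.

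Of the 8 uptake genes, TFRC among them, 7 were read and 1 passed the test, where 5.05% of all genes tested did. MELTF, melanotransferrin, rose from 30.1 CPM (41 reads) to 56.3 CPM (85 reads), with 0.89 as log2 ratio (adjusted p = 0.0232, exact binomial test). SLC39A8, a metal ion transporter, had 34.5 and 35.7 CPM, and SLC11A2, the endosomal iron exporter known as DMT1, had 4 and 7 reads. With known models only, the log2 ratios of MELTF and PCBP2 were -0.69 and -0.26, not past the threshold, and the median over all genes was then -0.26. Without genomic models MELTF had 0.62 and lost its call.

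Genes of export and systemic iron control were almost unread. Of 8, only HFE (1 and 2 reads) and HEPH (1 and 0 reads) had any, and SLC40A1, which encodes ferroportin, had 0 in both. FBXL5, the ligase subunit that directs IREB2 protein to degradation, had 22.1 and 27.8 CPM, above IREB2 and ACO1 in both libraries. All 24 genes of iron-sulfur cluster assembly were tested and 0 passed the exact binomial test, which 5.05% of all genes tested passed. CIAO2B, of cytosolic assembly, had 110 and 116 CPM, NUBP2 115 and 103 CPM, and ISCU, the mitochondrial scaffold, 118 and 88.0 CPM. Of 15 heme genes, 13 were tested and 0 passed the exact binomial test. At the share of 5.05%, lists of this size may well hold no call. BLVRA, a biliverdin reductase, had 104 and 96.6 CPM, UROS 96.3 and 93.98 CPM, and ALAS1, the first enzyme of heme synthesis outside erythroid cells, 73.5 and 74.1 CPM. The erythroid enzyme ALAS2 had 0 reads in both libraries.

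Among 10 genes whose mRNAs are known to carry an iron responsive element, 7 were read and 6 tested. FTL alone was called, the same call as among the 5 genes, where 5.05% of all genes tested were called between the libraries. A list this short cannot be set apart from that share. The known share was lower in replicate 2 in 9 of the 44 other iron genes tested for it and higher in 0 (Fisher's exact test), with a median difference of -11.8 percentage points. Over all genes 18.1% were called lower, with a median of -7.13, so the count of 9 was near the background. ISCU had the largest of these falls, from 83.1% to 50.4%.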

How the data were processed

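The authors deposited raw read counts per transcript model, whole numbers with no normalization, in 1 column per replicate, with the exon number and length of each model as other properties that the authors also deposited. Per the submitters' processing notes, minimap2 and hg38 were used; per the file headers, the columns have the form that TALON writes. Read filters and versions are not given in the sources used here. All 23533 known models matched GENCODE 29 in identifier, length and exon number, so structures, coordinates (GRCh38) and transcript sequences were taken from that release. Counts were summed per gene; log2 ratios of replicate 2 to replicate 1 used 0.5 added reads and library totals. With 1 group no edgeR model of conditions could be fitted, so exact tests on reads were used: binomial per gene and per model (at least 10 reads) and Fisher per gene for the known share (at least 20 reads), Benjamini-Hochberg adjusted over the whole table, threshold 0.05. They were run on simulated data that held counting error only, which cannot show how they behave with further spread between libraries. Counting error alone is covered by the 95% Wilson intervals and by the upper limit set at 3 reads where none was seen. TMM (edgeR 4.0.16) and DESeq2 1.42.0 size factors served as alternatives (R 4.3.3, Python 3.11.15, scipy 1.17.1).

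The 5 genes, the gene lists and the tests were chosen with earlier results of these data known. Models are named by rule: per gene, the known model with most reads, other known models with at least 10 reads, the top model of each other class with at least 10 reads, and, of the models past the threshold, the 2 with the largest log2 ratios. Genes are named where a list gene passed the test or was among the 3 highest of its list. The 3 pseudogenes with most reads and the 2 nearest genes by class percentages are named too. Other genes and models were named after their values were seen. A few genes that these rules name are not reported here.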

Additional observations from a re-analysis of the deposited data

How the results depend on the processing

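No paired analysis was possible because the 2 libraries form a single group. Leaving out a replicate gives the other one's value. The read-weighted length without genomic models then ran from 3685 to 4189 bases in TFRC (mean 3937), 1305 to 3375 in IREB2 and 1583 to 3673 in ACO1. Of the other alternative values of the main results, 94 kept their direction and call, stayed within 1 SD (values without a test) or within 1.5 times (counts), 19 moved and 4 reversed. TMM and DESeq2 scaling changed no call of the 5 genes. With known models only, 1042 of 5528 genes tested were called in place of 537 of 10634, and 723 of 8758 without genomic models. Of those called, 31.1% were higher in replicate 2 with known models only, 41.5% without genomic models and 53.8% with all. Among the other iron genes, 2 of 49 were called with all models. With known models only 4 of 39 were called, and without genomic models 4 of 47, with 1 higher in each case. The log2 ratio with known models only was 0.020 for FTH1, -1.09 for TFRC, -0.69 for MELTF and -0.26 for PCBP2. Without genomic models it was -1.26 for TFRC and -1.36 for IREB2. The median over all genes was -0.26 with known models only and -0.08 without genomic models. Known-share calls were 927 of 6216 genes with models of 2 or more exons, in place of 1631 of 8898. Model calls were 2055 of 237608 with no minimum on reads, in place of 3951 of 25381.

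Mean levels with known models only were 1833 CPM for FTH1, 4.999 for TFRC, 0.735 for IREB2 and 1.47 for ACO1, and without genomic models 2082 for FTH1, 15.3 for TFRC and 3.93 for IREB2. Read-weighted lengths with known models only were 1226, 878 and 5111 bases for FTH1, FTL and TFRC, and 408 for TFRC with genomic models. With ISM models of at least 5 reads, the ISM share of TFRC, IREB2 and ACO1 was 0%. The causes were not tested beyond the models each setting removes. The 9 to 28 reads per library of ACO1 and IREB2 limit all their values.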
